A study of Mus musculus with 4 samples.

Results

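Tissue kallikreins are secreted trypsin-like serine proteases of the salivary gland, pancreas and kidney. They were followed here as 10 mouse genes chosen by name out of the 53465 genes counted: Klk1, Klk1b1, Klk1b3, Klk1b4, Klk1b5, Klk1b8, Klk1b9, Klk1b11, Klk1b22 and Klk1b26. Klk1 encodes the kallikrein that releases kinin peptides from kininogen. The Klk1b genes arose in rodents by duplication, and several of their products process or bind growth factors in saliva. In the adult mouse submandibular gland these proteases are stored in granular convoluted tubules, duct segments that mature around puberty and are larger in males.

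Cells sorted as FGF10+ out of the submandibular gland (SMG) were the source of the RNA sequenced, from C57BL/6J mice carrying Fgf10CreERT2:Rosa26Tomato fl/fl. In such mice a Cre recombinase driven by Fgf10 turns on the red reporter when tamoxifen is given, so cells are marked by Fgf10 activity at that time and keep the mark afterwards. The adult mice received tamoxifen on postnatal days 57 and 58 and were sampled on day 60. The pup mice received it on days 4 and 5 and were sampled on day 7, and the dose was 0.1 mg for each g of weight in both ages. There were 2 libraries per age. The labels do not say whether each came from a separate animal or how many animals were used, so the p-values reflect only how far these libraries spread, which may be technical.

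Gene counts came to 13791730 and 16585518 in adult cells and 7289792 and 21490686 in pup cells. Levels are given as CPM, counts scaled to the library's total, scaled between libraries by the TMM method. Pup replicate 1 stood apart: 76.7% of its reads fell in no counted feature, against 9.70% to 10.6% in the other libraries. Of 1127 olfactory receptor genes, which salivary cells do not use, 96.5% had a count there. At that rate per kb of exon, 24.2% of its gene counts were expected as background. The adults differed from each other in cell markers. Fgf10 itself was measured at 195 and 40.3 CPM in adult cells and at 27.3 and 24.1 CPM in pup cells. The 7 ionocyte markers, of which Foxi1 is the defining transcription factor, summed to 6470 and 4383 CPM in adult cells and 155 and 209 CPM in pup cells. In these bulk libraries, fewer cells of a type and less RNA per cell cannot be told apart.

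The 10 genes lie in 1 cluster on chromosome 7, all on the forward strand, with 4 further protein-coding Klk1b genes and 10 pseudogenes over 287 kb (GRCm38, GENCODE vM21). Klk1b8 opens the row of members (43950664 to 43954941) and Klk1 closes it (44225360 to 44229618). Each codes for 255 to 260 residues, Klk1b4 being the shortest. Because they are copies of one another, reads can be lost or given to the wrong gene. Aligned coding sequences of members were 81.7% (Klk1b1 with Klk1b8) to 95.1% (Klk1 with Klk1b5) identical, with a median of 86.1% over 45 pairs. The start of the coding sequence, bases 5 to 64, is the stretch of 60 bases where members are most like Klk1. It is shown for Klk1 and for Klk1b26, the member that differs most from it there, with bases that differ from Klk1 in capitals:
Klk1: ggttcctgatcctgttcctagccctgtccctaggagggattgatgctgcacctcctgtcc
Klk1b26: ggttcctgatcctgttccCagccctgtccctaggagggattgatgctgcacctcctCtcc
Of the 9 members other than Klk1, 6 had 0 differences from it in these 60 bases, 2 had 1 and 1 had 2, so a read from this stretch alone cannot tell Klk1 from 6 of them.

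The stretch where members are least like Klk1 lies near the end of the coding sequence, at bases 692 to 751 in the genes shown. It is given for the most abundant members and for Klk1b5, the closest copy of Klk1, and again capitals mark bases that differ from Klk1:
Klk1: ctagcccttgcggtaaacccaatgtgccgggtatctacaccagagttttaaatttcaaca
Klk1b5: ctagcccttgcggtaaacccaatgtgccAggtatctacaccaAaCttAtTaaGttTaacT
Klk1b26: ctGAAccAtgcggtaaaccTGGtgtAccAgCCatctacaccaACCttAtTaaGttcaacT
Klk1b11: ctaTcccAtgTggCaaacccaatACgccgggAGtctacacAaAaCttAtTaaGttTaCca
Klk1b9: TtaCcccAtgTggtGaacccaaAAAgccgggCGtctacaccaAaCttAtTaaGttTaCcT
Klk1b5 differed from Klk1 at 8 of the 60 bases and the other members at 16 to 19, so a read that covers it can tell each of them from Klk1.

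**Figure D1:**
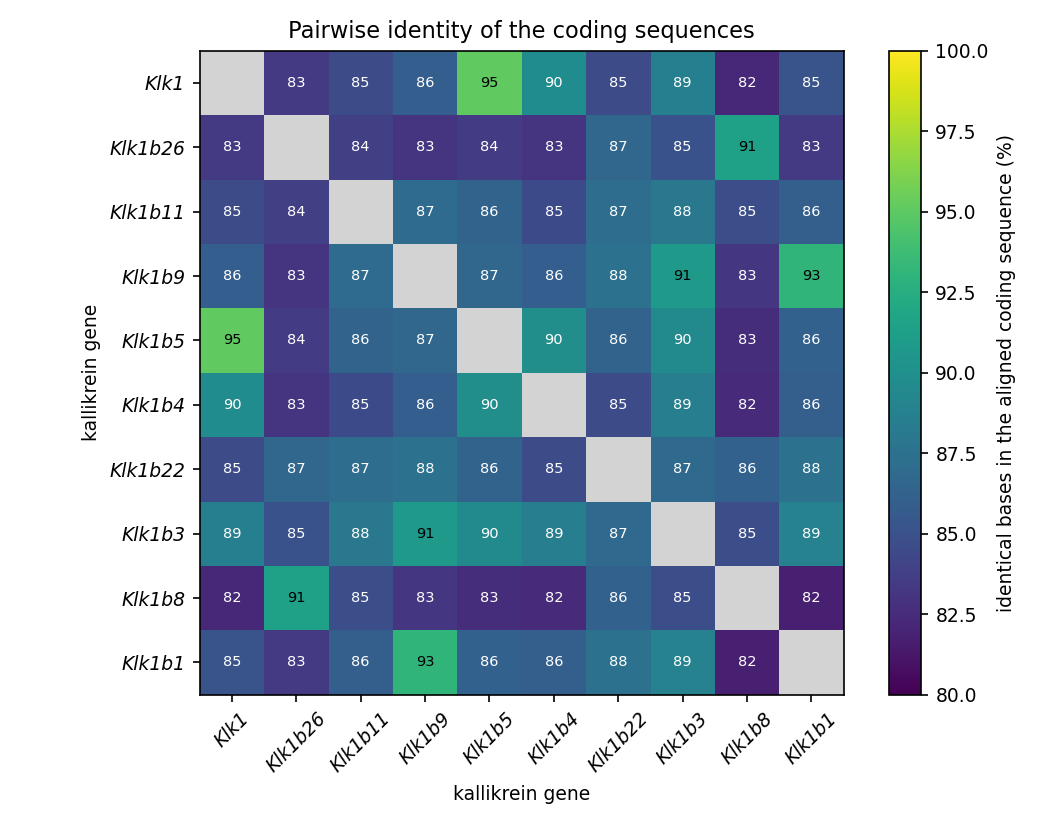
Percentage of identical bases in the aligned coding sequences, for each pair of the 10 kallikrein genes, ordered by mean adult CPM (cell colour and number; the diagonal is grey). Klk1 and Klk1b5 are the closest pair at 95.1%, and Klk1b8 is closest to Klk1b26.

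How much of each transcript is shared was measured by exact matches to any other annotated transcript on either strand. At a length of 50 bases, 12.8% to 24.0% of the positions of a member were shared. At 75 bases the range was 0.384% (Klk1b22) to 12.1% (Klk1), and at 100 bases 0% to 5.26% (Klk1b5), with 3 members sharing none. The read length is not given in the sources used here. No member shared exon sequence by position with another gene. Reads that did not align uniquely made up 19.0% and 18.7% of all reads in adult cells and 6.93% and 16.8% in pup cells, and the files do not say which genes they came from.

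Kallikrein RNA was high in both adult libraries and low in both pup libraries. Together the 10 genes took 0.419% and 1.06% of all gene counts in adult cells, against 0.00778% and 0.0188% in pup cells. Summed over the members, the level was 4425 and 12638 CPM in adult cells and 61.4 and 212 CPM in pup cells. The ratio of the age means was 62.4, a log2 ratio of 5.96, and the pooled standard deviation of the log2 sum within an age was 1.17. Without 1 library the log2 ratio was 6.50 (adult replicate 1 left out), 5.02 (adult replicate 2), 5.32 (pup replicate 1) or 7.12 (pup replicate 2). With all Klk1 and Klk1b genes of the annotation in the sum, it was 5.92.

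Each of the 10 members was higher in both adult libraries than in both pup libraries, as were 21.8% of the 16320 genes tested. All 10 had entered the test through counts in both adult libraries, and 5 of them would also have entered through the pups. By edgeR's quasi-likelihood test with Benjamini-Hochberg adjustment over all genes, 0 members passed an adjusted p of 0.05. The background for that count is also 0%, since 0 genes passed in either direction. At an unadjusted p under 0.05 all 10 members were higher in adult, as were 978 genes in all, or 5.99%. The adjusted p of members ran from 0.164 to 0.299. Adult over pup, the median log2 fold change was 6.73 for the members, with a range of 3.93 to 8.64, and -0.24 over all genes. All 10 fold changes were positive, as were 42.9% of those of all genes. DESeq2, another count model, called 7 members higher in adult, where 3.74% of all genes were called higher, and limma-voom called 0 members and 0 genes. The number called by edgeR depended on the filter. With no filter beyond 1 count it called 9 members higher, where 0.624% of genes were called higher. It called 0 members when 10 counts were asked in every library of an age, where 0.0856% of genes were called, and 0 once the expected background was taken off pup replicate 1, where 0.0919% were called. For a single gene, the smallest p of an exact permutation test (two-sided) is 0.333 in this design.

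**Figure D2:**
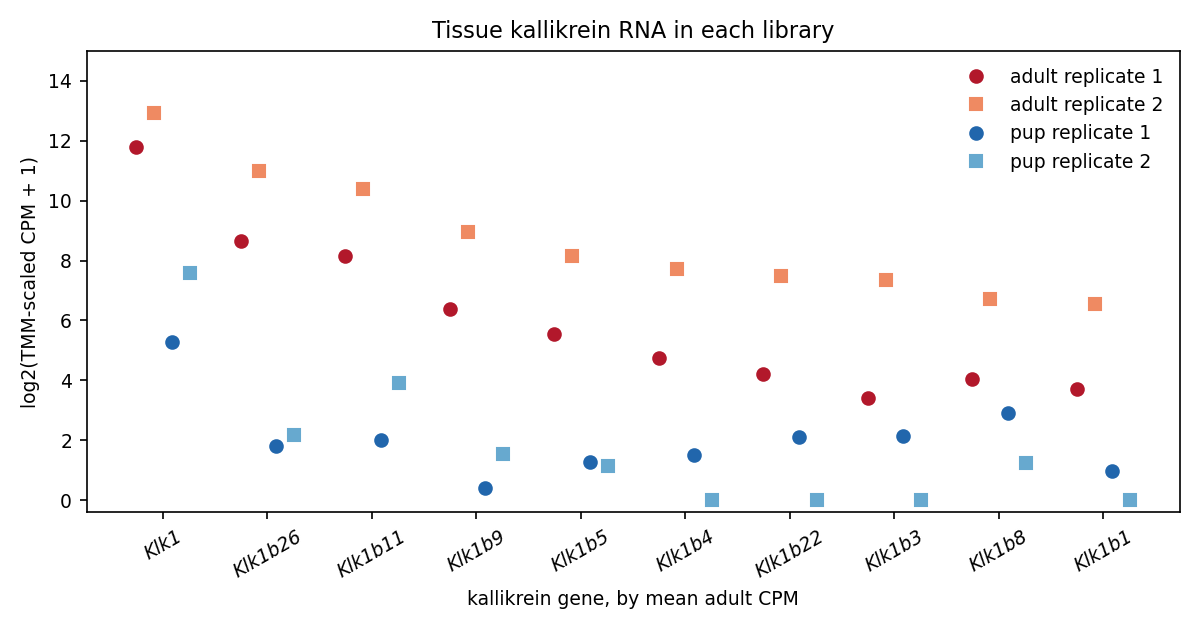
Level of each kallikrein gene in each library, as log2(TMM-scaled CPM + 1), with adults in red tones and pups in blue tones and 1 point per library. The adult points lie above the pup points for each gene, Klk1 is the highest in each library, and adult replicate 2 lies above adult replicate 1 throughout.

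Klk1, the kinin-releasing kallikrein, carried most of the RNA. It stood at 3532 and 7759 CPM in adult cells (46094 and 107774 counts), against 37.9 and 190.2 CPM in pup cells (350 and 3620 counts). The age groups did not overlap, and in pup replicate 1 the 350 counts lay above the 15.1 expected there from background. The log2 fold change of Klk1 was 5.63 ± 1.82 (SE, 2 libraries per age; edgeR adjusted p = 0.284, DESeq2 adjusted p = 4.47e-10).

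Klk1b26 encodes a prorenin-converting protease that was also described as an epidermal growth factor (EGF) binding protein. It was measured at 402 and 2031 CPM in adult cells and at 2.49 and 3.57 CPM in pup cells. Its log2 fold change of 8.64 ± 1.36 (SE) was the largest of the members when all 4 libraries were fitted (edgeR adjusted p = 0.164, DESeq2 adjusted p = 5.03e-24). The 23 counts of pup replicate 1 were close to the 19.5 expected from background, and pup replicate 2 had 68 counts.

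Klk1b9 and Klk1b22 encode the other EGF-binding proteins of the family, which are found in complex with EGF in the mouse gland. Klk1b9 was measured at 82.5 and 493 CPM in adult cells and at 0.325 and 1.89 CPM in pup cells, a log2 fold change of 7.94 ± 1.39 (SE, edgeR adjusted p = 0.166). Klk1b22 was measured at 17.6 and 177 CPM in adult cells and at 3.35 and 0 CPM in pup cells, a log2 fold change of 5.93 ± 2.02 (SE, edgeR adjusted p = 0.284). The genes differed in pup replicate 2, which had 36 counts of Klk1b9 and 0 of Klk1b22.

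Klk1b3 encodes an active protease, whereas the Klk1b4 product lacks protease activity. Klk1b3 was measured at 9.58 and 161 CPM in adult cells and at 3.46 and 0 CPM in pup cells, and Klk1b4 at 25.8 and 209 CPM in adult cells and at 1.84 and 0 CPM in pup cells. For both genes the adults lay above the pups, and for Klk1b3 the adult libraries were farthest apart. Their log2 fold changes were 5.70 ± 2.13 and 7.13 ± 1.93 (SE, edgeR adjusted p = 0.299 and 0.261). DESeq2 called neither of them, nor Klk1b22 (adjusted p = 0.354, 0.129 and 0.297).

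Klk1b11, Klk1b5, Klk1b1 and Klk1b8 encode further secreted kallikreins. Klk1b11 was measured at 281 and 1327 CPM in adult cells and at 3.03 and 14.0 CPM in pup cells, a log2 fold change of 6.55 ± 1.35 (SE, edgeR adjusted p = 0.205). Klk1b5 was measured at 46.0 and 284 CPM in adult cells and at 1.41 and 1.21 CPM in pup cells, a log2 fold change of 6.98 ± 1.09 (SE, edgeR adjusted p = 0.164). After Klk1, Klk1b11 was thus the member with the most counts in pup replicate 2 (267), while Klk1b5 had 23 there. Klk1b1 was measured at 12.03 and 92.6 CPM in adult cells and at 0.974 and 0 CPM in pup cells, a log2 fold change of 6.90 ± 1.89 (SE). Klk1b8 was measured at 15.7 and 104 CPM in adult cells and at 6.60 and 1.37 CPM in pup cells, and had the smallest log2 fold change, 3.93 ± 1.201 (SE). The edgeR adjusted p was 0.263 for Klk1b1 and 0.284 for Klk1b8. DESeq2 called all 4 of them, with an adjusted p of 3.57e-10 for Klk1b11, 7.01e-11 for Klk1b5, 0.00183 for Klk1b1 and 0.0215 for Klk1b8, and it called Klk1b9 at 5.60e-12.

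In pup replicate 1 the counts of the 9 members other than Klk1 ran from 3 to 61, and 11.8 to 19.5 counts per gene were expected from background. For 3 of the 10 members (Klk1b1, Klk1b5 and Klk1b9) the count lay below that expectation. Summed without Klk1, these genes had 217 counts there with 124 expected from background, and the gene with the most was Klk1b8, with 61 counts where 12.1 were expected. Pup replicate 2 had a count for 6 members and 0 counts for Klk1b1, Klk1b3, Klk1b4 and Klk1b22. Against it alone, with the adult mean on top, Klk1 was 29.7-fold higher in adult, Klk1b11 57.3-fold, Klk1b26 341-fold, Klk1b9 152-fold, Klk1b5 136-fold and Klk1b8 43.8-fold. For the genes at 0 the adult mean was at least 332-fold (Klk1b1), 542-fold (Klk1b3), 745-fold (Klk1b4) and 616-fold (Klk1b22) higher, against a floor of 3 counts in that library. With adult replicate 1 alone on top the bounds were lower, at 76.3-fold, 60.8-fold, 164-fold and 112-fold in the same order. Adult replicate 2 alone gave 587-fold, 1023-fold, 1327-fold and 1120-fold. These bounds cover counting error only.

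The adult libraries differed from each other for each member. Adult replicate 2 was above adult replicate 1 for 10 of 10 genes, by 2.20 times for Klk1 and by 4.72 (Klk1b11) to 16.8 times (Klk1b3) for the others. The minor members therefore did not scale with Klk1 from one adult library to the other. Without adult replicate 2 the log2 fold changes of the members ran from 1.98 (Klk1b8) to 7.04 (Klk1b26), and edgeR called 4 of the 10 (Klk1b5, Klk1b9, Klk1b11 and Klk1b26), where 1.51% of all genes were called higher in adult. The log2 fold change of Klk1b3 was 2.48 and that of Klk1b22 3.41 in that fit. Without adult replicate 1 the range was 4.66 to 9.34, and edgeR called 9 of the 10, Klk1 being the exception (adjusted p = 0.582), where 1.4% of all genes were called higher. In both fits the lone adult library was assumed to vary like the pups. Without pup replicate 1, and again without pup replicate 2, edgeR called 0 members and 0% of all genes. Without pup replicate 2 the log2 fold changes ran from 3.18 (Klk1b8) to 9.75 (Klk1b9). Without pup replicate 1 they ran from 4.89 (Klk1) to 8.40 (Klk1b26) for the 6 members with a count in the other pup library, and for the 4 at 0 there a fitted value depends on the prior count and is not given.

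**Figure D3:**
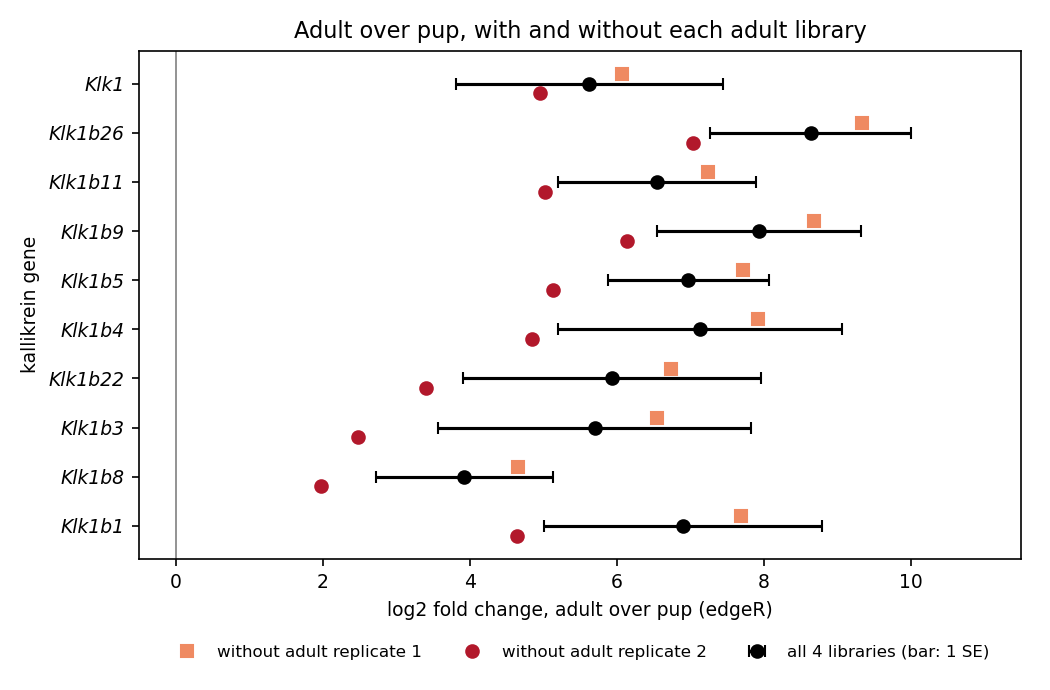
Log2 fold change of adult over pup for each kallikrein gene by edgeR, with all 4 libraries (black, bars 1 SE) and without adult replicate 1 (orange squares) or adult replicate 2 (red circles). All points lie above 0, and those without adult replicate 2 are the lowest for each gene, down to 1.98 for Klk1b8.

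Markers of other cell types also differed between the adult libraries. Acinar markers, the products of the secretory end pieces, summed to 613 and 55720 CPM in adult cells, against 663 and 2266 CPM in pup cells, over 11 genes. In adult replicate 1, 6 of them were at 0, among them Aqp5 with 0 counts, and in adult replicate 2 Mucl2, Pip and Prol1 carried the sum, at 37832, 10397 and 7058 CPM. Adult over pup, 5 of the 11 had a positive and 6 a negative log2 fold change, with a median of -1.16, and edgeR called 0. DESeq2 called Mucl2 and Prol1 higher and Smgc, Dcpp1, Dcpp2 and Dcpp3 lower in adult. Over all 16320 genes tested it called 610 higher and 862 lower. Smgc, a salivary mucin-like gene, had 106 and 227 CPM in adult cells and 526 and 1564 CPM in pup cells. Mesenchymal markers summed to 1235 and 21704 CPM in adult cells, against 25356 and 57339 CPM in pup cells, over 7 genes. Endothelial markers summed to 0.0766 and 537 CPM in adult cells, against 72.1 and 2.57 CPM in pup cells, over 3 genes. Y-linked RNA was near 0 in adult replicate 1, where 3 of 4 genes had 0 counts, whereas adult replicate 2 held 556 counts of Ddx3y and the pups held 491 and 1324. Myoepithelial markers summed to 5127 and 2180 CPM in adult cells, against 4894 and 14222 CPM in pup cells, over 6 genes. Leukocyte markers summed to 18.5 and 18.3 CPM in adult cells, against 96.6 and 12.8 CPM in pup cells, over 5 genes. The sums of pup replicate 1 include its background counts. Duct markers, 8 genes, summed to 3863 and 8841 CPM in adult cells, against 474 and 1178 CPM in pup cells. Wfdc18 alone gave 97.0 and 6416 CPM of the adult sums. Without it, a step chosen after seeing the data, the other 7 duct genes summed to 3766 and 2425 CPM in adult cells, against 449.5 and 971 CPM in pup cells, and 6 of the 7 were higher in adult replicate 1 than in adult replicate 2. In adult replicate 1, acinar, mesenchymal, endothelial and Y-linked markers had their lowest sums. The kallikreins summed to 4425 CPM there and to 12638 CPM in adult replicate 2. The part of these differences in the kallikrein levels was not tested.

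Per kb of exon, the order of the members was the same at the top in both adults and in pup replicate 2. Klk1 came first, with 3280 and 7204 CPM per kb in adult cells and 177 CPM per kb in pup replicate 2, followed by Klk1b11, Klk1b26 and Klk1b9. Klk1b11 stood at 326 and 1538 CPM per kb in adult cells and Klk1b26 was measured at 290.3 and 1466, so these neighbours differed less within a library than either did between the adult libraries. The order of Klk1b11 and Klk1b26 depends on their annotated exon lengths, 863 and 1386 bases. In CPM, not divided by length, Klk1b26 was above Klk1b11 in both adults. Klk1b9 had 94.8 and 567 CPM per kb in adult cells. The lower 6 members lay between 10.8 and 33.1 CPM per kb in adult replicate 1 and between 107 and 249 in adult replicate 2, and their order changed between the libraries: Klk1b5 ranked 5 and 7, Klk1b3 ranked 10 and 8. In pup replicate 1 the order below Klk1 was different, with Klk1b8 and Klk1b22 next, at 61 and 31 counts where about 12 counts each were expected from background.

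**Figure D4:**
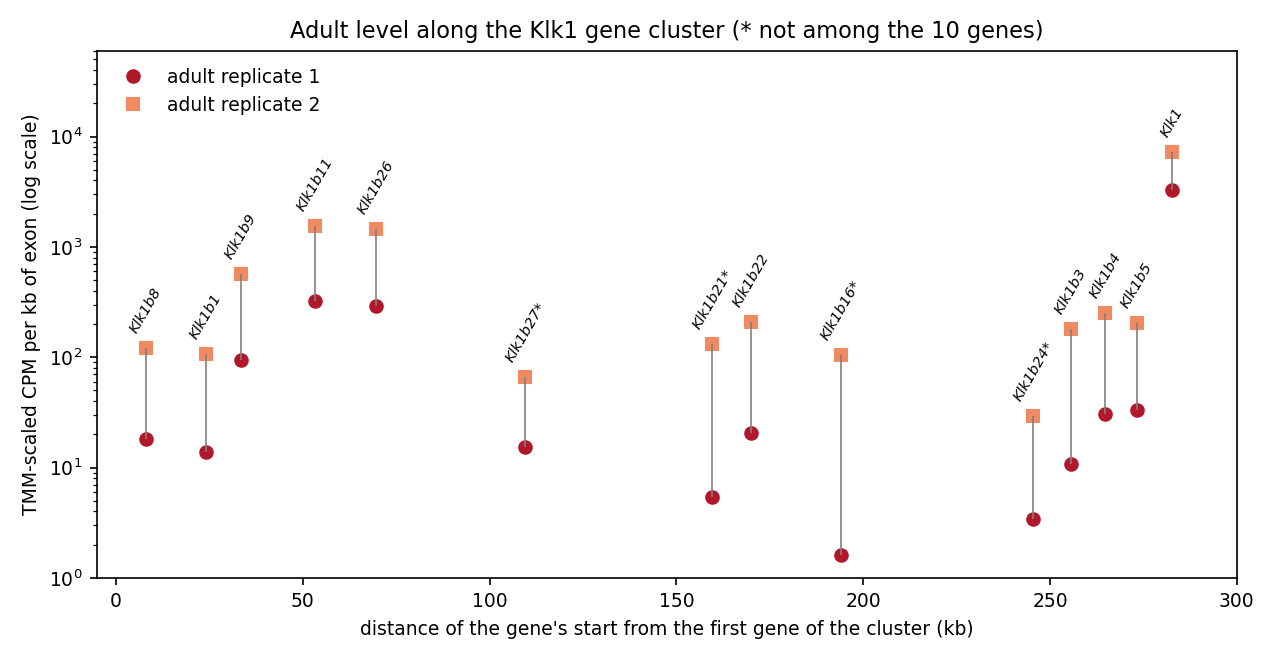
TMM-scaled CPM per kb of exon (log axis) in adult replicate 1 (circles) and adult replicate 2 (squares) for the 14 protein-coding genes of the cluster, by the distance of each gene's start from the first gene, in kb. Klk1, the last gene, is the highest, and Klk1b9, Klk1b11 and Klk1b26 are neighbours among the protein-coding genes and are the next highest.

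The make-up of the kallikrein RNA differed between libraries. Klk1 made up 79.8% of the members' counts in adult replicate 1 (95% Wilson interval 79.5% to 80.1%) and 61.4% in adult replicate 2 (61.2% to 61.6%). In the pups it made up 61.7% in replicate 1 (57.7% to 65.6%) and 89.6% in replicate 2 (88.6% to 90.5%). The spread between the adults thus exceeded counting error, which is all these intervals cover, and the ages overlapped. Among the other 9 genes, Klk1b26 took 45.1% and 41.6% of the counts in adult cells, against 16.2% in pup replicate 2 (13.0% to 20.0%), and Klk1b11 took 31.5% and 27.2% in adult cells, against 63.6% in pup replicate 2 (58.9% to 68.0%). Klk1b26 thus led Klk1b11 in counts in both adults, and Klk1b11 led in pup replicate 2. In pup replicate 1 their shares were 10.6% and 12.9% of 217 counts, of which 124 were expected from background, so the pup share has no replicate check.

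**Figure D5:**
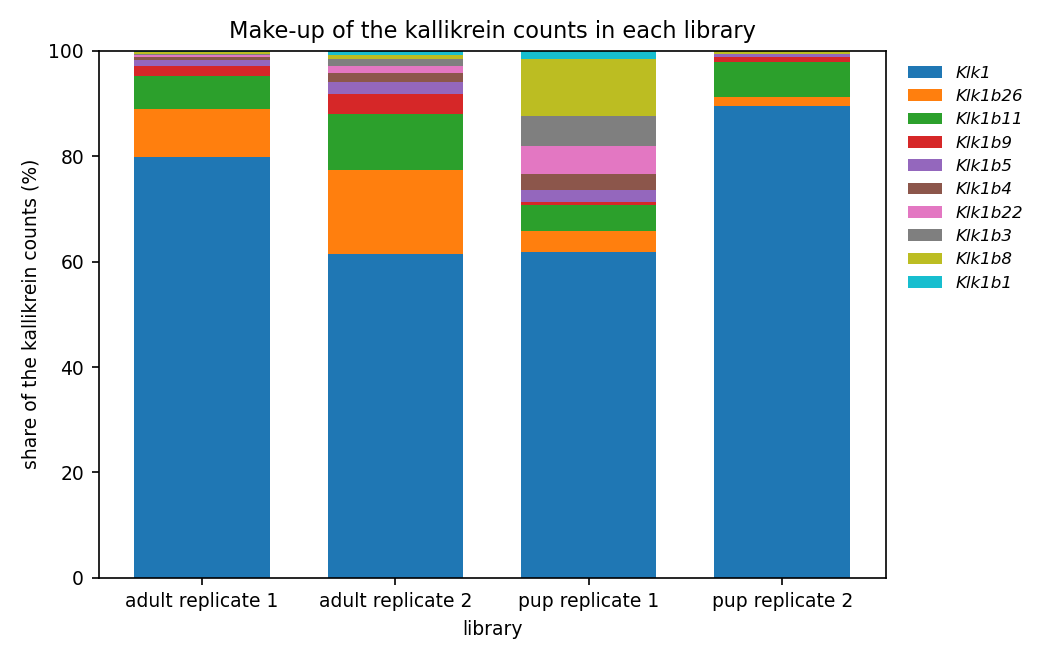
Share of each kallikrein gene in the summed counts of the 10 genes (bars, %), for adult replicates 1 and 2 and pup replicates 1 and 2. Klk1 (bottom, blue) takes 61.4% to 89.6%, and Klk1b26 (orange) is larger than Klk1b11 (green) in both adults and smaller in pup replicate 2. In pup replicate 1 they had 23 and 28 counts, where 19.5 and 12.1 were expected from background.

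The 4 protein-coding genes of the cluster outside the list were also higher in adult replicate 2 than in adult replicate 1. Klk1b16, known as gamma-renin, had 29 and 1999 counts in adult cells, against 20 and 0 in pup cells, with 19.5 expected from background in pup replicate 1. Klk1b21 had 61 and 1583 counts in adult cells and 8 and 3 in pup cells, Klk1b27 had 178 and 824 in adult cells and 31 and 22 in pup cells, and Klk1b24 had 39 and 358 in adult cells and 65 and 0 in pup cells. Both adults lay above both pups in CPM for 3 of these 4 (not Klk1b24), as they did for 21.8% of the 16320 genes tested. For Klk1b16 this rests on 2.22 CPM in adult replicate 1 and 2.16 CPM in pup replicate 1. Scaled by library totals alone they were 2.10 and 2.74 CPM, so that the ages overlapped. Klk1b16 was 64.8 times and Klk1b21 24.4 times higher in adult replicate 2 than in adult replicate 1, beyond the range of the 10 members, and Klk1b27 was 4.35 times higher. None passed edgeR's adjusted threshold, and DESeq2 called Klk1b21 and Klk1b27 higher, where 3.74% of all genes were called higher. The 10 pseudogenes together had 39 and 109 counts in adult cells and 101 and 0 in pup cells.

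The kallikrein-related peptidases Klk4 to Klk15, whose genes lie beside the cluster, were hardly detected. All 12 had 0 counts in adult replicate 1, and 8 had 0 in adult replicate 2, where Klk8, a peptidase best known from skin and brain, had 163. In pup replicate 1 all 12 had counts (5 to 59), where 13.3 to 32.2 counts per gene were expected from background. In pup replicate 2, 10 had 0. Only Klk8 and Klk10 entered the test and neither passed. A count of 0 in a library allows up to 3 counts.

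The start regions of the kallikrein genes resemble one another as well. All 10 members matched a RefSeq promoter window (GRCm38.p6, 250 bases before to 50 after the annotated start), and aligned windows were 77.1% to 92.5% identical between pairs. The windows of Klk1, the most abundant member, and of Klk1b26, Klk1b9 and Klk1b22 are shown, all on the forward strand, with matches to TTTAAA in capitals. They lie at chr7:44225110-44225409, chr7:44012428-44012727, chr7:43975811-43976110 and chr7:44112423-44112722, in that order:
Klk1: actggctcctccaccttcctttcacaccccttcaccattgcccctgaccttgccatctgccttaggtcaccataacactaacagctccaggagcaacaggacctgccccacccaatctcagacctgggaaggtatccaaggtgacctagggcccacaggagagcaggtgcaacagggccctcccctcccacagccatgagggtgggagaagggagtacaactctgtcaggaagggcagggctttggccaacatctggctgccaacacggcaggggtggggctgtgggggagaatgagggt
Klk1b26: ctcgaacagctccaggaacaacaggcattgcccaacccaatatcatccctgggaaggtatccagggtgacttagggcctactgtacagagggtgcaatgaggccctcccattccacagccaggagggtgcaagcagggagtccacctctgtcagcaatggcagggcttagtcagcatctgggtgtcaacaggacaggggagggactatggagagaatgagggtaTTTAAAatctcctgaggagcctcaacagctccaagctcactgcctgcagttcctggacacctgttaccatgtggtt
Klk1b9: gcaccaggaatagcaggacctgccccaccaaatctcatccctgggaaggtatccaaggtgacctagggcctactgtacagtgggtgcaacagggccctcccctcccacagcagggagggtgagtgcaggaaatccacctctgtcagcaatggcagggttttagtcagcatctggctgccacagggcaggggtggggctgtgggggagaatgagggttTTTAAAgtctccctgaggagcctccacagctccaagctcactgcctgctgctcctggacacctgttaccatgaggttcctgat
Klk1b22: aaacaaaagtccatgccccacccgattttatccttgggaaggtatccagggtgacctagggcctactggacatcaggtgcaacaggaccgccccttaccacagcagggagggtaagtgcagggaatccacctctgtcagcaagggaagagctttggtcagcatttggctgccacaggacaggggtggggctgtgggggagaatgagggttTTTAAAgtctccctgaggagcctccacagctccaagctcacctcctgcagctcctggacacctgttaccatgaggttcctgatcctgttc
TTTAAA, a form of the TATA box, was found in 9 of 10 member windows and in 13.2% of all 32851 windows, searched on both strands (it reads the same on either). In these 9 genes its first base lay between positions -48 (Klk1b4) and -13 (Klk1b3) from the annotated start. The Klk1 window held none, but it ends in gagaatgagggt, a run that 7 member windows hold and that 6 of them follow with TTTAAA within 3 bases. In the Klk1 transcript TTTAAA begins at base 52, just past the 50 bases that the window covers. TATAAA was in 0 of 10 member windows and 13.6% of all. The forkhead core TGTTTA was in 0 of 10 and 13.4% of all, on both strands. The steroid-receptor core TGTTCT was in 1 of 10 (Klk1b3) and 19.0% of all, and the palindrome of that site with its reverse complement, 3 bases apart, which contains it, in 0 of 10 and 3 windows in all. These matches describe letters only.

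Other products of the granular convoluted tubule did not all follow the kallikreins. Of 8 listed genes 7 were matched and 5 tested, 4 with a positive log2 fold change and 0 called by edgeR, with a median of 1.16 over the 5 against -0.24 over all genes. Crisp3, a cysteine-rich secretory protein of saliva, was measured at 1198 and 1812 CPM in adult cells and at 7.79 and 17.0 CPM in pup cells, a log2 fold change of 6.92 ± 1.12 (SE; edgeR adjusted p = 0.164, DESeq2 adjusted p = 5.34e-33). Egf, bound by the Klk1b9 and Klk1b22 products, was measured at 9.50 and 86.8 CPM in adult cells and at 34.0 and 0 CPM in pup cells, and 158 of its 314 counts in pup replicate 1 came within the background expectation. Crisp1 had 0.230 and 14.4 CPM in adult cells and 4.65 and 2.52 CPM in pup cells. Egf and Crisp1, defining markers of the tubule, were thus low in adult replicate 1, where Klk1 and Crisp3 were high.

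Of 12 genes listed for the kinin system, most of which make, sense or break down kinins, 7 were tested. Among these, 3 had a positive and 4 a negative log2 fold change, and edgeR called 0. The kininogen genes Kng1 and Kng2 and the receptor gene Bdkrb1 had 0 counts in both adults and in pup replicate 2. In pup replicate 1 they had 109, 25 and 34 counts, where 45.6, 38.4 and 20.1 were expected from background. Ace, which encodes a kinin-degrading peptidase, was measured at 37.6 and 131 CPM in adult cells and at 11.3 and 18.1 CPM in pup cells (log2 fold change 2.52 ± 0.73, SE; edgeR adjusted p = 0.272, DESeq2 adjusted p = 0.0320). Cpm, a carboxypeptidase that trims kinins, went the other way, with 18.2 and 8.86 CPM in adult cells, against 106 and 209 CPM in pup cells (log2 fold change -3.54 ± 0.66, SE; edgeR adjusted p = 0.189, DESeq2 adjusted p = 8.80e-06). Cpd and Mme, other peptidases of the list, had log2 fold changes of 1.31 ± 0.64 and 1.29 ± 0.83 (SE).

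Of 12 serine protease inhibitors 6 were tested, 5 positive and 1 negative. By edgeR 0 were called, and DESeq2 called 3 higher, where 3.74% of all genes were called higher. Spint2 and Spint1, membrane-bound Kunitz inhibitors of epithelial proteases, stood at 1458 and 1178 CPM and at 417 and 301 CPM in adult cells, against 164 and 455 CPM and 24.1 and 36.0 CPM in pup cells. Their log2 fold changes were 2.09 ± 0.94 and 3.57 ± 0.62 (SE). Serpinb6b was measured at 380 and 189 CPM in adult cells and at 27.3 and 69.0 CPM in pup cells. These 3 were higher in adult replicate 1 than in adult replicate 2. The other 3 tested, Serpina3n, Serpina3c and Serpina5, had 0 counts in adult replicate 1 and 38.5, 6.62 and 2.52 CPM in adult replicate 2. In the pups Serpina3n had 18.3 and 16.6 CPM.

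Of 10 genes for steroid and thyroid receptors and steroid 5-alpha-reductases, 8 were tested, 2 positive and 6 negative, with 0 called by edgeR. Nr3c2, the mineralocorticoid receptor, was measured at 136 and 82.0 CPM in adult cells and at 33.0 and 15.8 CPM in pup cells (log2 fold change 2.16 ± 0.59, SE; edgeR adjusted p = 0.262, DESeq2 adjusted p = 0.0363). Nr3c1, the glucocorticoid receptor, was measured at 18.7 and 82.4 CPM in adult cells and at 102 and 209 CPM in pup cells (log2 fold change -1.62 ± 0.81, SE). Thra and Esr1 had log2 fold changes of -1.04 ± 0.57 and -1.25 ± 0.66 (SE).

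The genes whose profile over the 4 libraries was most like the summed kallikreins were Crisp3, Bglap3, Atp2a3, Lrrc26 and Fxyd2. Likeness was the distance between centred log2(CPM + 1) profiles among 4302 genes with a mean of at least 50 CPM. Genes whose symbol begins with Klk, the members among them, were left out of this ranking. The distance was 1.19, 1.35, 1.52, 1.67 and 1.69 for these 5 genes in the order named, where the median gene had 5.89. Lrrc26, an auxiliary subunit of potassium channels, was measured at 62.5 and 155 CPM in adult cells and at 2.27 and 5.15 CPM in pup cells. Atp2a3, a calcium pump of the endoplasmic reticulum, was measured at 1576 and 1550 CPM in adult cells and at 16.6 and 21.2 CPM in pup cells. Bglap3, an osteocalcin-related gene, had 348 and 893 CPM in adult cells and 12.4 and 32.6 CPM in pup cells. Fxyd2, a regulator of the sodium pump, had 6338 and 3534 CPM in adult cells and 40.4 and 106 CPM in pup cells. Of the 5, Crisp3, Bglap3 and Lrrc26 were higher in adult replicate 2 than in adult replicate 1, as the kallikreins were. The 4 points of each profile share their libraries and depth, so this is a description.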

How the data were processed

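RNA of sorted cells was made into libraries with the SMART-Seq HT kit from 1 ng of total RNA, per the labels' protocols, a method that amplifies full-length cDNA by PCR and does not mark strand. The deposited values are raw read counts per Ensembl gene, 1 file per library. Per the submitters' processing notes, the tools were cutadapt 1.18, STAR 2.5.2a, HTSeq 0.11.0, R 3.5.1 and DESeq2 1.20.0 with genome build GRCm38. Options, strand setting, read length and annotation release were not given in the sources used here. HTSeq's tallies, which name no gene, made up 32.9% and 32.3% of adult reads and 84.4% and 31.5% of pup reads and were left out. The 2 tables of the whole series were not used, because their 8 value columns match no single sample.

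Of 53465 genes, 53360 matched GENCODE vM21. Counts were tested in R 4.3.3 with edgeR 4.0.16 (quasi-likelihood, TMM factors, a design of age alone). Its filterByExpr, at a minimum count of 10 and total of 15, left 16320 genes, over which p-values were adjusted by Benjamini-Hochberg, after a check on simulated data. Standard errors come from the F statistic. Alternatives were DESeq2 1.42.0, voom of limma 3.58.1, other scalings and filters, the replicate number as a block, each library left out, and pup replicate 1 less its expected background. Background was the count per kb of exon over protein-coding olfactory receptor genes, taken at 0.5 of this on X and Y. Coding sequences and promoters were aligned with mafft 7.526. Named were all members, the other Klk1b genes, up to 4 genes per list of highest mean CPM and the 5 most similar genes, and others as counts. Foxi1, Aqp5, Dcpp1, Dcpp2, Dcpp3, Serpina3c, Serpina5, Ddx3y, Kng1, Kng2 and Bdkrb1 were named after their values were seen. Some genes of the lists are not reported by name here. The members and lists were chosen with earlier results of these data known.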

Additional observations from a re-analysis of the deposited data

How the results depend on the processing

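All 10 members kept a positive log2 fold change under the 13 alternatives, 130 values in all. By edgeR 0 genes and 0 members were called, and the same held with DESeq2 size factors, upper-quartile factors, library totals, limma-voom and the replicate number as a block. The numbers of genes and of members called were 515 and 9 with no filter beyond 1 count, 15 and 0 when 10 counts were asked in every library of an age, 1472 and 7 by DESeq2, and 17 and 0 with the background of pup replicate 1 removed. Leaving out 1 library each, they ran from 0 to 980 genes and from 0 to 9 members. The cause of these differences was not tested. Upper-quartile factors and library totals shifted the median of all genes by -0.18 and -0.38 (log2) and lowered members by up to 0.73. The log2 ratio of the summed members was 5.75 to 5.96 under the scalings and 5.02 to 7.12 when 1 library was left out. The replicate numbers share no stated source. Deviations of same-numbered libraries correlated at -0.03 across genes and those of crossed numbers at 0.03. With 2 libraries per age these mirror each other by construction, so they cannot show or exclude a shared source. The limits are 2 libraries per age, and pup replicate 1, where 124 of the 217 counts of members other than Klk1 were expected from background.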
